A study of Mus musculus with 4 samples.

Results

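Transcripts of 10 receptor tyrosine kinase genes were measured in NIH3T3, an established line of mouse cells that the labels call dermal fibroblasts. The genes were Pdgfra, Pdgfrb, Fgfr1, Fgfr2, Egfr, Erbb2, Met, Axl, Ddr1 and Ddr2. The genes were chosen with earlier results of these data known. Their probes were taken by gene name, whatever the probe values, from the non-control probes of the arrays. These carry 37074 gene names on 56605 probes. All 10 genes were found, with 24 probes and 1 to 4 probes per gene. The set had been proposed under a name that points to fibroblast growth factor receptors, but only 2 of the 10 genes, Fgfr1 and Fgfr2, belong to that family. The 10 genes fall into 6 families and are called the receptors here. The cells had been transfected with a control siRNA (siControl, 2 arrays) or with an siRNA against Timp1 (siTIMP1, 2 arrays). In both groups sCA, the apatite nanoparticle of the study's title, was the carrier and the medium held 2% Fetal calf serum, so no untransfected cells enter any comparison. The siRNA sequence and the time after transfection are not given in the sources used here.

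Receptor tyrosine kinases span the cell membrane once, bind a ligand outside the cell and, when brought together, phosphorylate one another on tyrosines inside it. Adaptor proteins dock on these tyrosines and pass the signal to the RAS and MAP kinase cascade and to phosphoinositide 3-kinase. PDGF and FGF receptors drive growth and migration of fibroblasts, the EGF receptor family and MET do so in many epithelia, and the discoidin domain receptors bind fibrillar collagen. Several of these receptors are cut from the cell surface by metalloproteinases, the enzymes that TIMP proteins inhibit. The arrays measure transcripts and say nothing of receptor protein, phosphorylation or shedding.

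The probes of these genes are 60 bases long. For 3 of them the sequence itself shows which part of the coding region is read, and these are printed here because they tell which receptor a signal comes from. Capitals mark, in the open reading frame, the codons of the Asp-Phe-Gly motif of the kinase activation segment in the first pair and the stop codon in the last.
Fgfr1 A_65_P11598: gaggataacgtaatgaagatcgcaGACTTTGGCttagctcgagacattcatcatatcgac
Ddr2 A_55_P1992954: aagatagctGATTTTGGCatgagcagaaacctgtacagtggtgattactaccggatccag
Fgfr2 A_55_P2094881: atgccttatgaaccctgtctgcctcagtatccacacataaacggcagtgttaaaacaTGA
In this order they lie on mm9 at chr8:26682852-26682911 (plus strand), chr1:171914554-171914613 (minus) and chr7:137307473-137307532 (minus), each printed 5′ to 3′ in the sense of the transcript. The motif codons of the first pair matched at 8 of 9 bases. Over the 45 bases that these probes share when set side by side on the motif, 25 were identical (55.6%), and the longest identical run was 6 bases. Either spelling of the motif, GATTTTGGC or GACTTTGGC, stood in 33 of all 56605 probes on the sense strand (0.0583%). None of the 24 receptor probes shared a run of 20 bases with a probe of another gene name.

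A further pair of probes is printed, with no capitals, since they read coding sequence of receptors whose probes are set against each other below. The Axl probe lies at chr7:26545782-26545841 (minus strand) and the Egfr probe at chr11:16783545-16783604 (plus).
Axl A_65_P08024: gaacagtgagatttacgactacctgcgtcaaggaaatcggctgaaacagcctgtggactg
Egfr A_52_P56471: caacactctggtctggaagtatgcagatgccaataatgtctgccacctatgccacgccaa

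All arrays shared a slide and a scan. The siControl arrays took its first 2 positions and the siTIMP1 arrays the others, so slide position and group cannot be told apart. Between 45.9% and 52.1% of spots per array were well above background. Of 10 fibroblast markers 9 were well above background on every array, while Fap was so on none. Markers of other cell types were also well above background on every array, with 2 of 8 epithelial genes (Krt8 and Krt14), 1 of 7 endothelial genes (Vwf) and 5 of 7 macrophage genes (Cd14, Cd68, Csf1r, Itgam and Ptprc). Well above background on no array were, among others, the epithelial Epcam and Cdh1, the endothelial Cdh5 and the macrophage genes Adgre1 and Lyz2. The summed processed signal of the macrophage markers was 3529 to 3536 on the siControl arrays and 2997 to 3268 on the siTIMP1 arrays, and its part in the receptor values was not tested. That of the fibroblast markers was 364813 to 396940 and 403642 to 403964. Timp1, the targeted gene, had processed signals of 53297 and 67559 in siControl and of 1840 and 1492 in siTIMP1. It fell by 5.22 on the log2 scale (SE 0.158, limma adjusted p = 0.0105). The call was lost with either siTIMP1 array left out, as was every other call on the array. Timp1 had -5.37 without siTIMP1 replicate 1 and -5.07 without replicate 2.

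Of the 24 receptor probes 22 could be tested, at least 1 for each gene. The others, 1 for Egfr and 1 for Fgfr2, were not well above background on any array. No receptor probe passed an adjusted p of 0.05 in limma, where 179 of 26015 tested probes did (0.688%, with 0.0615% higher and 0.627% lower in siTIMP1). At an unadjusted p under 0.05 there were 5 of 22, against 18.4% of all tested probes. Of these, 3 had lower values with siTIMP1 (7.7% of all probes) and 2 had higher values (10.6%). The groups did not overlap for 14 of 22 receptor probes, against 53% of all probes. In 7 of them siTIMP1 was higher (29.8% of all probes) and in 7 it was lower (23.2%). The median log2 fold change was -0.0025 over the 22 probes and 0.02 over all tested probes. These shares were near the background of the whole array. With 2 arrays a group, changes could pass unseen. On simulated arrays the fit called 30% of probes changed 1.5-fold and 58% of those changed 2-fold, with 50 random probes changed at each fold. The simulated noise was normal and took each probe's variance as already smoothed by the fit. Real variances are less even, so these shares may be too high, and they are not particular to the receptors. The 95% interval of the difference lay within a 2-fold change either way for 20 of the 22 probes.

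**Figure D1:**
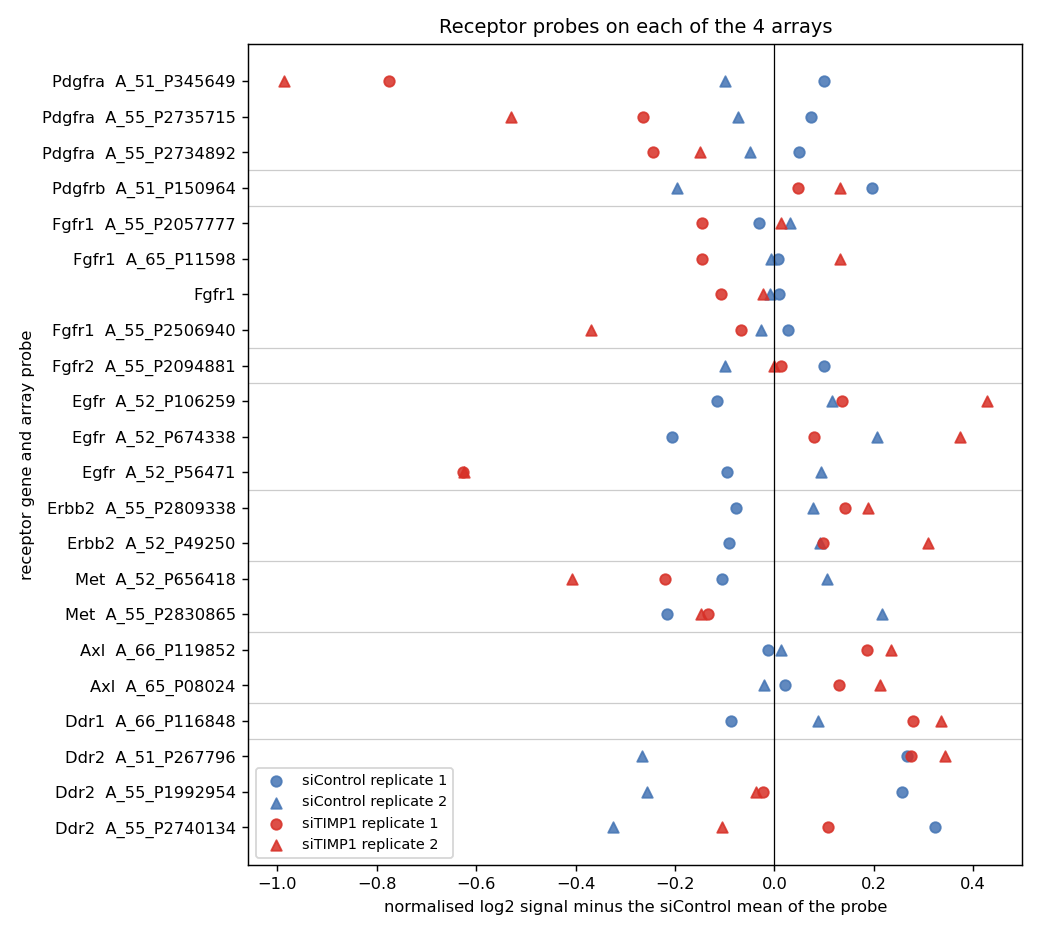
Normalised log2 signal of the 22 tested receptor probes on each array (x axis), with the siControl mean of the probe subtracted, by gene and probe (y axis). Blue marks are siControl, red marks siTIMP1, circles replicate 1 and triangles replicate 2. All 3 Pdgfra probes have both red marks left of both blue ones, while the red marks of Fgfr2 lie between the blue ones.

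Pdgfra had the receptor probe nearest to a call, while Pdgfrb had a value near 0. Pdgfra encodes the receptor that binds PDGF-A chains and marks mesenchymal cells. Its brightest probe, A_51_P345649, had processed signals of 1054 and 898 on the siControl arrays and of 587 and 506 on the siTIMP1 arrays. Both siTIMP1 arrays were thus below both siControl arrays. After normalisation siControl averaged 2.40 ± 0.14 on the log2 scale (SD, n = 2), and siTIMP1 averaged 1.52 ± 0.15 (SD, n = 2). The log2 fold change was -0.88 (SE 0.116, 95% interval -1.18 to -0.58), or 54.3% of the control level. Its adjusted p in limma was 0.0618, just short of a call, at rank 247 by p of 26015. It passed with robust eBayes (adjusted p = 0.0392) and with no filter on dim probes (0.0115). Over the whole array 310 and 458 probes passed in these settings, against 179 in the main fit. The Pdgfra probe had -0.78 without siControl replicate 1 and -0.98 without siControl replicate 2. It was furthest from passing without siTIMP1 replicate 2 (0.360).

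The other Pdgfra probes had the same sign with smaller values. Probe A_55_P2735715 had signals of 154 and 136 in siControl and of 124 and 103 in siTIMP1, a log2 fold change of -0.40 (SE 0.138, adjusted p = 0.237). Probe A_55_P2734892 was near background, with signals of 11.2 and 10.2 against 9.35 and 9.96, and was not well above it on siTIMP1 replicate 2. Its log2 fold change was -0.20 (SE 0.305, adjusted p = 0.751). In the array files the bright probe belongs to the Pdgfra mRNA and lies on chromosome 5 at 75593888 to 75593947 (mm9), while the other 2 belong to cDNA clones only and lie upstream at 75579392 to 75579451 and 75571099 to 75571158. The mean of the Pdgfra probes gave -0.49 (adjusted p = 0.183). Whether the probes differ in their change was not tested.

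Pdgfrb encodes the receptor for PDGF-B chains and has 1 probe, on chromosome 18. Its signals were 1818 and 1355 in siControl and 1673 and 1772 in siTIMP1, so that both siTIMP1 arrays lay between the siControl ones. The log2 fold change was 0.09 (95% interval -0.27 to 0.45, limma adjusted p = 0.755). Leaving out siControl replicate 2 gave -0.11, and leaving out replicate 1 gave 0.28, neither of them called. The interval of Pdgfrb lies above that of the bright Pdgfra probe, and the difference between them was not tested.

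Fgfr1, the main FGF receptor of mesenchymal cells, had 4 tested probes, with log2 fold changes from -0.22 to -0.01 and no call. The brightest, A_55_P2057777, on chromosome 8 at 26685072 to 26685131 (mm9), had signals of 24373 and 24894 in siControl and of 22974 and 25623 in siTIMP1, and the groups overlapped. Its log2 fold change was -0.07 (95% interval -0.24 to 0.10, limma adjusted p = 0.614). The probe on the Asp-Phe-Gly codons had signals of 507 and 491 against 465 and 564 and a log2 fold change of -0.01 (95% interval -0.30 to 0.29). Probe A_55_P2506940, had signals of 87.3 and 82.1 against 83.4 and 67.6 and a value of -0.22 (95% interval -0.60 to 0.16). The sign of the brightest probe turned only with siTIMP1 replicate 1 left out (0.01). That of the Asp-Phe-Gly probe turned in 4 of 13 alternatives, among them the omission of 1 array.

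Fgfr2, a receptor better known from epithelia, was dim. The probe that ends on its stop codon, on chromosome 7 at 137307473 to 137307532 (mm9), had signals of 71.6 and 60.9 in siControl and of 68.8 and 68.1 in siTIMP1. The log2 fold change was 0.01 (95% interval -0.34 to 0.35, limma adjusted p = 0.982). The other Fgfr2 probe lies further upstream in the gene and had signals between 1.90 and 3.33, not well above background on any array.

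**Figure D2:**
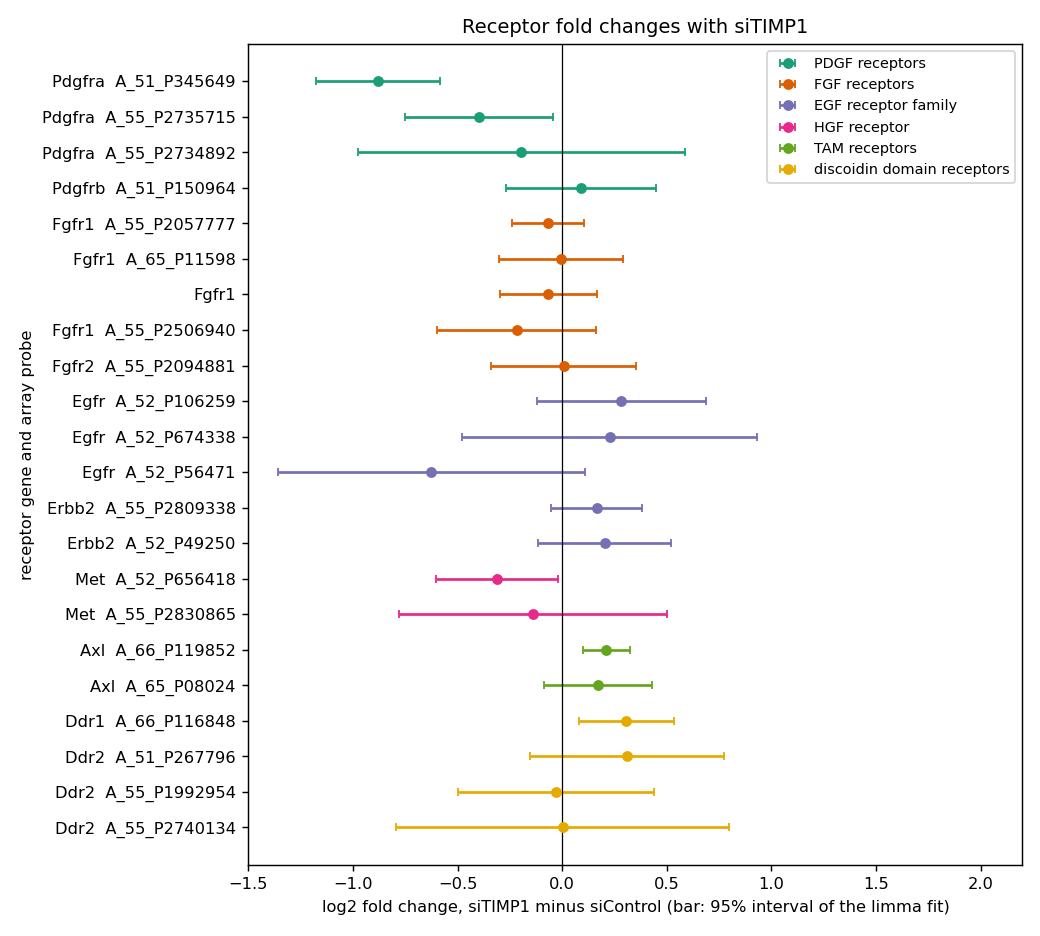
Log2 fold change of each tested receptor probe, siTIMP1 minus siControl (x axis), with bars for the 95% interval of the limma fit, by gene and probe (y axis) and coloured by receptor family. Intervals that leave out 0 belong to 2 Pdgfra probes, 1 Met probe, 1 Axl probe and the Ddr1 probe, none of which passed the adjusted threshold.

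Egfr and Erbb2 encode members of the EGF receptor family. ERBB2 has no known ligand of its own and pairs with the other members. Of the Egfr probes the brightest, A_52_P106259, had signals of 82.5 and 94.6 in siControl and of 100.2 and 122.5 in siTIMP1. Both siTIMP1 arrays were above both siControl arrays, with a log2 fold change of 0.28 (SE 0.158, limma adjusted p = 0.394). Probe A_52_P674338, at signals of 13.6 to 20.7, had a value of 0.23 (SE 0.275) with overlapping groups. The coding probe printed above, A_52_P56471, went the other way, with signals of 13.5 and 15.0 in siControl and 9.50 on each siTIMP1 array. It lies on chromosome 11 at 16783545 to 16783604 (mm9), upstream of the other 2, and was not well above background in siTIMP1. Against the floor of the siTIMP1 arrays its mean was at least 1.31-fold lower there (measured log2 means -3.70 and -4.32, limma adjusted p = 0.322). The array files assign this probe to another Egfr transcript record than the other 2, and whether the probes differ was not tested.

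Erbb2 had higher values in siTIMP1 on both of its probes, which lie close together on chromosome 11. Probe A_55_P2809338 had signals of 875 and 953 against 1040 and 1072, a log2 fold change of 0.17 (95% interval -0.05 to 0.38, limma adjusted p = 0.362). Probe A_52_P49250 had 190 and 211 against 221 and 256, a value of 0.20 (95% interval -0.12 to 0.52). On each probe the groups did not overlap, yet neither interval left out 0.

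Met encodes the receptor of hepatocyte growth factor. Its brighter probe, A_52_P656418, on chromosome 6 at 17523765 to 17523824 (mm9), had signals of 704 and 796 in siControl and of 664 and 581.9 in siTIMP1. The siTIMP1 arrays were the lower ones, with a log2 fold change of -0.31 (SE 0.114, 95% interval -0.61 to -0.02), but the limma adjusted p was 0.251. The other Met probe lies further upstream, at 17442312 to 17442371. Its signals of 17.5 and 23.1 against 18.9 and 18.7 gave a value of -0.14 (SE 0.250) with overlapping groups.

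Axl encodes a receptor of the TAM family, which binds GAS6 and takes part in the clearance of dying cells and in survival signalling. Its bright probe, A_66_P119852, on chromosome 7 at 26542335 to 26542394 (mm9), had the smallest SE of the 22 tested probes. The signals were 21639 and 21519 in siControl and 25326 and 26176 in siTIMP1. The log2 fold change was 0.21 (SE 0.0436, 95% interval 0.10 to 0.32), which is 116% of the control level, with a limma adjusted p of 0.125. The coding Axl probe printed above had signals of 143 and 135 against 157 and 166 and a value of 0.17 (SE 0.1003, adjusted p = 0.411). Both probes had non-overlapping groups and the same sign.

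The discoidin domain receptors are kinases switched on by collagen. Ddr1, on chromosome 17 at 35818525 to 35818584 (mm9), had signals of 855 and 945 in siControl and of 1125 and 1168 in siTIMP1. Both siTIMP1 arrays were higher, with a log2 fold change of 0.31 (SE 0.0890, 95% interval 0.08 to 0.53) and a limma adjusted p of 0.190. Ddr2, the form typical of mesenchymal cells, had 3 tested probes. Its brightest, A_51_P267796, had 1434 and 969 in siControl and 1471 and 1542 in siTIMP1, a value of 0.31 (SE 0.181, adjusted p = 0.410). The probe on the Asp-Phe-Gly codons had 280 and 192 against 235 and 233 and a value of -0.03 (SE 0.183). The third probe, at signals of 13.2 to 21.2, had a value of 0.0018 (SE 0.311).

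The Ddr2 values rest on siControl arrays that differed. Replicate 2 was below replicate 1 by 0.53, 0.51 and 0.65 on the log2 scale on the 3 probes, while the siTIMP1 arrays differed by 0.07, -0.01 and -0.21. The median absolute difference between siControl arrays over all tested probes was 0.145. With siControl replicate 1 left out, the brightest Ddr2 probe had a log2 fold change of 0.58. With siControl replicate 2 left out it had 0.04. Pdgfrb showed the same order of siControl arrays, with a difference of 0.39. Over the receptors, 8 of 22 probes had siControl arrays further apart than the groups, against 46.1% of all tested probes.

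**Figure D3:**
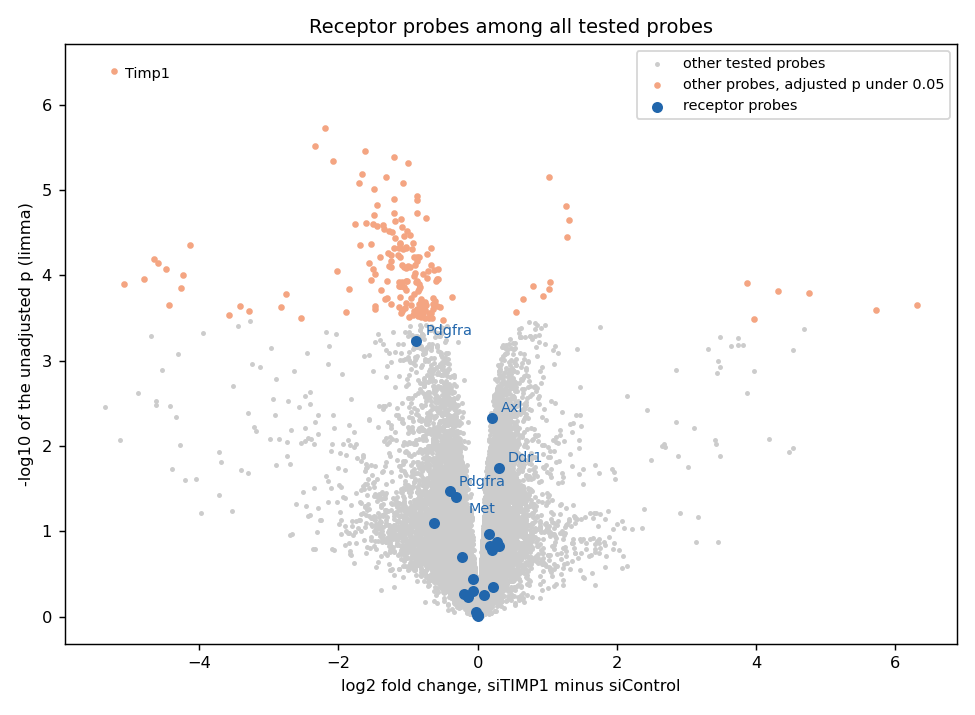
Log2 fold change, siTIMP1 minus siControl (x axis), against -log10 of the unadjusted p of the limma fit (y axis) for all 26015 tested probes in grey, those past an adjusted p of 0.05 in orange and the 22 receptor probes in blue. Blue points with an unadjusted p under 0.05 are named, and none of them is in the called range, with Pdgfra nearest to it.

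The receptors' ligands were measured on the same arrays, with each gene represented by its tested probe of highest mean. No ligand gene passed the adjusted threshold, which 0.784% of 17734 tested genes did (0.0846% higher and 0.699% lower). Among PDGF ligands, 3 of 4 were tested, with log2 fold changes of 0.34 for Pdgfa, 0.24 for Pdgfc and -0.35 for Pdgfb (limma adjusted p from 0.168 to 0.298). Another Pdgfa probe had 0.02. Of 18 FGF ligands 9 were tested, with a median of 0.03 against 0.02 over all tested genes. The best placed were Fgf23 (-0.28), Fgf6 (-0.51), Fgf18 (0.38) and Fgf21 (0.69), with adjusted p from 0.178 to 0.311. The FGF ligand median was -0.20 when siTIMP1 replicate 2 was left out and -0.06 when siTIMP1 replicate 1 was. It was also below 0 without siControl replicate 1 (-0.01) and with the percentile over detected probes (-0.02). With only probes well above background on every array it was -0.05, and it kept its sign in the remaining settings. Fgf21 had 1.15 with siControl replicate 1 left out and 0.23 with siControl replicate 2 left out.

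All 3 tested genes of the EGF family of ligands, out of 11, had higher values with siTIMP1, and none was called. Hbegf, the heparin-binding ligand of EGFR, had signals of 2604 and 3334 in siControl and of 4270 and 4733 in siTIMP1, a log2 fold change of 0.56 (SE 0.142, limma adjusted p = 0.160). Nrg1 had 0.49 (adjusted p = 0.212), with other probes from -0.21 to 0.65, and Ereg had 0.34 with overlapping groups (adjusted p = 0.468). These values moved with the siControl array used. With replicate 1 left out Hbegf had 0.37, Ereg -0.01 and Nrg1 0.69. With replicate 2 left out they had 0.76, 0.69 and 0.30. Hgf, the MET ligand, had 0.22, and the TAM ligands Gas6 and Pros1 had 0.10 and -0.26 (limma adjusted p from 0.312 to 0.619). Other Hgf probes had 0.65 (adjusted p = 0.117) and 0.11, and the other Pros1 probe had -0.15.

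Fibrillar collagens are ligands of DDR1 and DDR2. All 7 were tested and none was called, with a median of 0.30 on the log2 scale. Col5a1 had 0.49, Col2a1 0.54, Col3a1 0.40 and Col5a2 -0.70 (limma adjusted p from 0.172 to 0.367). The other Col5a2 probe had the opposite sign (0.17), and other Col3a1 probes had 0.28 and 1.28. The collagen median rested on the siControl arrays. It was 0.63 with replicate 1 of that group left out, where Col2a1, Col3a1 and Col5a1 had 0.86, 0.72 and 0.68 and Col5a2 had -0.42. It was -0.03 with replicate 2 left out, where these 3 had 0.22, 0.08 and 0.30 and Col5a2 had -0.98.

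Of 48 other receptor tyrosine kinases 31 were tested and none was called. At an unadjusted p under 0.05 there were 4 higher (11.8% of all tested genes) and 4 lower (7.98%). Their median log2 fold change was -0.08, with 12 values higher and 19 lower, and -0.01 over the 23 genes well above background on every array. Ephb3, an ephrin receptor, had 0.27 (SE 0.0475, limma adjusted p = 0.0988) and Epha4 had 0.46 (adjusted p = 0.160). Csf1r had -0.29 and Ror1 -0.58 (adjusted p = 0.189 and 0.195), and the other Csf1r probe had -0.09. Epha8 and Epha1 were not well above background on the siTIMP1 arrays, where their means were at least 5.10-fold and 3.63-fold lower than in siControl. Neither was called (log2 fold change -3.97, SE 1.66, and -2.44, SE 0.578, limma adjusted p = 0.293 and 0.152). The same holds, at 1.74-fold or less, for probes of Flt3, Aatk and Insr. That Flt3 probe is not the gene's tested probe of highest mean, which had -0.12 (limma adjusted p = 0.897). Measured log2 means were -1.86 and -5.84 for Epha8 and -2.35 and -4.80 for Epha1.

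Co-receptors and decoys, such as syndecans and FGFRL1, had 9 of 11 genes tested and none called, with a median of -0.04. Nrp1, a co-receptor for several growth factors, had a log2 fold change of -0.26 (limma adjusted p = 0.195), with other probes from -1.09 to -0.01. Pdgfrl had 0.32, Gpc1 -0.15 and Sdc3 -0.12. Pdgfrl and Gpc1 had 0.49 and -0.32 with siControl replicate 1 left out. They had 0.14 and 0.02 with replicate 2 left out, where the sign of Gpc1 turned. The median of the 9 genes was -0.15 and 0.05 in these settings.

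All 37 adaptors and signal relays downstream of the receptors were tested, with 19 values higher, 18 lower and none called. Their median was 0.02 on the log2 scale, and -0.02 with quantile normalization and with the percentile over detected probes. Pik3r1, the regulatory subunit of phosphoinositide 3-kinase that docks on PDGF receptors, had signals of 274 and 275 in siControl and of 206 and 199 in siTIMP1, a value of -0.48 (SE 0.0891, limma adjusted p = 0.108). Hras (0.29), Map2k1 (0.32) and Braf (-0.39) had adjusted p from 0.153 to 0.172. The other Map2k1 probe had 0.02, and other Braf probes ranged from -0.35 to 1.26. A Src probe that was not well above background in siTIMP1 had a mean at least 1.24-fold lower there (limma adjusted p = 0.386). The Src probe of highest mean, well above background on every array, had 0.04 (SE 0.106, adjusted p = 0.867).

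Negative regulators, which limit receptor signalling, were also uncalled, with 20 of 20 tested and a median of 0.07 on the log2 scale. Ptpn2, a tyrosine phosphatase, had -0.41 (SE 0.0745, limma adjusted p = 0.108) and its other probe had -0.43. Dusp6, the MAP kinase phosphatase induced by FGF signalling, had signals of 4522 and 4942 in siControl and of 6341 and 6409 in siTIMP1, a value of 0.39 (SE 0.0718, adjusted p = 0.109). Lrig2 had -0.33 (other probes -0.77 and 0.45) and Spred2 -0.43 (adjusted p = 0.145 and 0.241). With siControl replicate 1 left out Dusp6 had 0.31 and Spred2 -0.62, and the median was -0.11. With replicate 2 left out Dusp6 had 0.47 and Spred2 -0.23. The other Spred2 probe had -1.07 (adjusted p = 0.520). A Cblb probe not well above background in siTIMP1 had a mean at least 2.61-fold lower there (limma adjusted p = 0.303). The Cblb probe of highest mean had -0.24 (adjusted p = 0.531).

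The single call among these lists was in the group of proteases that cut receptors from the cell surface and their inhibitors. There 1 of 8 tested genes was called lower and none higher (genes called lower on the whole array, 0.699%). With a single call over all the lists, the share within this list is no measure of the list as a set. Values were higher for 4 of the genes and lower for 4. Adam10, a membrane protease that sheds growth factor receptors and ligands, had signals of 793 and 859 in siControl and of 416 and 387 in siTIMP1. It fell by 1.09 on the log2 scale (SE 0.0931, limma adjusted p = 0.0281), and its other probe had -1.04 (adjusted p = 0.182). The call was lost with either siTIMP1 array left out, as was every other call on the array. Adam10 had -1.14 without siTIMP1 replicate 1 and -1.04 without replicate 2. Adam17, the main shedding enzyme of EGFR ligands, had -0.14 with overlapping groups (adjusted p = 0.538), Adam15 had 0.09 and Timp3 had -0.31 (adjusted p = 0.0974). Other probes of Adam17, Adam15 and Timp3 had the same signs as these values. The median of the 8 genes was -0.04. It was 0.01 with siControl replicate 1 left out, 0.02 with siTIMP1 replicate 1 left out and -0.13 with siTIMP1 replicate 2 left out. The RNA comes from whole cultures of the NIH3T3 line, in which a lower level in every cell and a loss in part of the cells cannot be told apart.

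**Figure D4:**
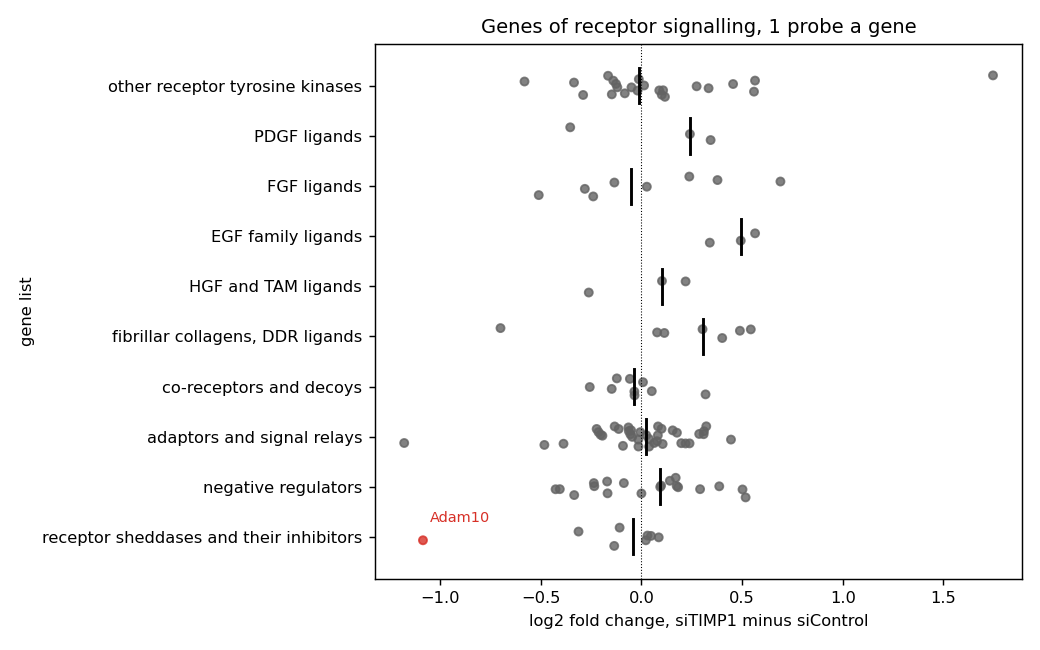
Log2 fold change, siTIMP1 minus siControl (x axis), of genes of receptor signalling well above background on every array, 1 probe a gene, by list (y axis). Each point is a gene, the bar is the median of the plotted genes and red marks an adjusted p under 0.05, which only Adam10 has.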

How the data were processed

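Total RNA from 4 cell samples, 2 per group, was read on Agilent arrays in the Cy3 channel alone. The authors deposited scanner output, in which spot intensity comes from Agilent Feature Extraction 11.5.1.1 according to their processing notes. Per the file headers, background had been subtracted from the processed intensity and spatial trends removed, and probe positions are on mm9. The authors' log2 value table equals log2 of this signal minus a constant for each array, 6.90 to 6.96, within 0.00502. Its column medians ran from -3.99 to -3.86. No further upstream step is given in the sources used here.

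Each array was scaled here by its own 75th percentile of the processed signal (182 to 190.0, control spots aside) on the log2 scale. Outlier spots, 136 to 250 an array, were dropped, no spot was saturated, and repeated spots of a probe were averaged. Testing required values on 4 arrays and, in at least 1 group, a signal well above background on both. The groups were compared by limma 3.58.1 under R 4.3.3 with trended eBayes and Benjamini-Hochberg adjustment over 26015 probes. A pathway gene was represented by its tested probe of highest mean. Names are those of the array files, and 32994 probes had an accession found in the RefSeq table. For a bound, the mean of the brighter group was set against the dim arrays. Each dim array stood at the probe's own value or at the lowest value called well above background there, whichever was higher. A bound thus compares means and takes no account of their spread. In every bound given here siTIMP1 was the dim group, and siTIMP1 replicate 2 had the smallest share of spots well above background (45.9%). No label says whether replicates were separate cultures, so the p-values reflect the spread between these samples, possibly technical, and the number of arrays limits precision.

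The members and gene lists were chosen with earlier results of these data known. The rule names the receptor probes, then Timp1, then in each list the called genes and those of smallest p, up to 4, among genes well above background on every array, with genes at background in 1 group as bounds. The fit was tested on simulated arrays. Alternatives changed background correction, normalization, filters, variance model, threshold, probe averaging, the value table and the arrays used. Leaving out an array kept the tested probes. Sequences were read from the array files, and 1 Fgfr1 probe, an exception to the rule above, is not reported singly here. Exon, intron and UTR were not assigned, since no mm9 annotation was used here.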

Additional observations from a re-analysis of the deposited data

How the results depend on the processing

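No receptor value that passed in either setting changed sign. Of 294 receptor values under the alternatives, 289 kept their side of the threshold and 5 gained a call, 4 of these the bright Pdgfra probe and 1 the brightest Ddr2 probe. Uncalled values turned sign in 16 cases. Receptor probes called lower numbered 1 in place of 0 at an adjusted p under 0.1, with no filter and with robust eBayes, as did receptor genes called. Leaving out an array gave 0 to 1 probes lower, 0 to 1 higher and 0 to 2 genes. Pathway genes called lower, 1 in the main analysis, numbered 2 at an adjusted p under 0.1, 0 without a variance trend and 0 to 5 with an array left out. Those called higher, 0 there, numbered 1 at an adjusted p under 0.1 and 0 to 8 with an array left out. Over all probes, 16 higher became 181 at an adjusted p under 0.1, 124 when dim probes were kept, 61 under robust eBayes, 0 without a trend and 0 to 483 with an array left out. The 163 lower became 384, 334, 249, 0 and 0 to 840 in the same order. No probe was called without either siTIMP1 array, where 2920 and 2692 had an unadjusted p under 0.05. With 1 array left in a group, it is assumed to vary like the other group. For none of these shifts was the cause tested, and the cause was not tested for single genes. Calls gained by receptor probes and named genes came in settings where calls over all probes rose as well. Adam10 and Timp1 lost their calls without a variance trend (limma adjusted p = 0.133 for each). The median of co-receptors was -0.08 under quantile normalization or scaling to detected probes, -0.15 with siControl replicate 1 left out and 0.05 with replicate 2 left out. No paired analysis was possible because no sample number occurs in both groups. Dim probes, near background, limit what can be seen of Fgfr2 and of parts of Egfr and Pdgfra.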

Other observations

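Replicate arrays of the receptors differed by amounts that varied with the gene. The brightest Ddr2 probe had a difference of 0.53 between siControl arrays, larger than for 90.1% of all tested probes, and Pdgfrb had 0.39, larger than for 83.4%. The bright Axl probe had 0.02 between siControl arrays and 0.05 between siTIMP1 arrays, against medians of 0.145 and 0.118 over all tested probes. Outside the rule for named genes, and chosen after their values were seen, Styk1 and Pik3ca had the most extreme values among list genes well above background on every array. Styk1 had a log2 fold change of 1.75 (SE 1.13, limma adjusted p = 0.449) and Pik3ca, the catalytic subunit of phosphoinositide 3-kinase, had -1.18 (SE 0.610, adjusted p = 0.364), so neither passed.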
